A study of Mus musculus with 6 samples.

Results

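The 9 genes described here encode parts of the red cell membrane and of the protein mesh beneath it: the adducins Add1, Add2 and Add3, the erythroid spectrin beta chain Sptb, ankyrin Ank1, protein 4.1 Epb41, protein 4.2 Epb42, the anion exchanger Slc4a1 (band 3) and the Rh-associated glycoprotein Rhag. They were picked by name, as rows whose Ensembl ID carries one of these symbols, from a table of 43629 gene IDs. All 9 passed the filter on low counts and were among the 15432 genes tested. Add2 was included because it was higher in the Gata2+/f libraries, so its difference between the genotypes chose it and is given as a description, without a p-value.

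RNA came from leukaemic C57BL/6 mice at the end stage of disease, and every mouse in both groups carried a Cbfb-MYH11 knockin allele, the mouse form of the fusion gene of inversion-type acute myeloid leukaemia. One group was Gata2+/+ (replicates 3, 5 and 6) and the other Gata2+/f (replicates 7, 9 and 11), so both groups were leukaemic and no healthy marrow was part of the comparison. Frozen bone marrow was thawed, cells bearing the c-kit receptor were sorted, and 1 poly-A selected stranded library was sequenced per sample. The labels do not spell out the f allele, the driver of any Cre, or the age of the mice, and they do not state that each library is a separate mouse, in which case the p-values measure only the spread between these libraries.

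Red cells keep their shape through a net of spectrin tetramers, built of alpha and beta chains, that meet at short actin filaments. Protein 4.1 and the adducins hold spectrin onto those filaments, and adducin also caps their fast-growing ends, while ankyrin and protein 4.2 tie spectrin to band 3 and to the Rh complex in the lipid bilayer. Several of these genes are made in large amounts only late in red cell formation, and GATA factors and KLF1 are known regulators of erythroid membrane genes. Mature red cell adducin contains alpha and beta subunits, encoded by Add1 and Add2, whereas Add3, the gamma form, is the usual partner of alpha-adducin in other tissues.

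Library totals ran from 53789568 to 67854631 counts, so that 3 counts corresponded to 0.0424 to 0.06 CPM (counts scaled to a common library size, with edgeR's TMM factors of 0.821 to 1.11). Gata2 itself lay at 886, 887 and 737 CPM in Gata2+/+ and at 498, 273 and 264 CPM in Gata2+/f, with no overlap (log2 fold change -1.28, SE 0.32, adjusted p = 0.109 by edgeR's quasi-likelihood test). Kit, the receptor used for sorting, was present in every library but lay at 826 to 1466 CPM in the Gata2+/+ libraries and 175 to 328 CPM in the Gata2+/f libraries (log2 fold change -2.34, SE 0.36, edgeR adjusted p = 0.0955). By DESeq2, a second test that called 10.5% of all the genes it tested, the adjusted p was 0.0143 for Gata2 and 6.31e-06 for Kit. Marker lists of other myeloid cells moved with genotype. All 12 late neutrophil genes had log2 fold changes above 0, and the list summed to 162 to 479 CPM in Gata2+/+ and 4110 to 8284 CPM in Gata2+/f. Of 11 tested mast cell and basophil genes, Gata2 and Kit among them, 10 lay below 0, and that list summed to 10966 to 13079 and 1328 to 4140 CPM. No gene of these lists was at 0 in all libraries. Macrophage markers of erythroblast islands summed to 63.7 to 198 and 136 to 397 CPM, megakaryocyte markers (Gp6 at 0 throughout) to 648 to 876 and 134 to 288 CPM, eosinophil markers to 130 to 182 and 58.9 to 94.4 CPM, B and T cell markers to 3.64 to 10.3 and 15.9 to 25.0 CPM, and dendritic cell markers to 154 to 654 and 560 to 1094 CPM. For 2 of these lists the sum and the single genes differed. Of the megakaryocyte genes 5 lay above and 5 below 0 (median log2 fold change 0.017). Of the eosinophil genes 4 lay above and 3 below 0 (median 0.89), with Prg2, Prg3 and Epx higher and Siglecf lower in every Gata2+/f library. Over all tested genes, 13.1% were higher and 16.6% lower in Gata2+/f without overlap between groups. In bulk RNA, a different number of cells of a type and a different amount of RNA per cell cannot be told apart, and the part of these cell types in the values below was not tested.

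Beta-adducin, Add2 (ENSMUSG00000030000, chr6:86028681-86124409, plus strand, GRCm38), was close to the detection limit in Gata2+/+ and well above it in Gata2+/f. Its level was 0.180, 0.732 and 0.685 CPM in Gata2+/+ replicates 3, 5 and 6, from 9, 43 and 44 counts. In Gata2+/f replicates 7, 9 and 11 it was 52.4, 29.1 and 41.5 CPM, from 3703, 1740 and 2775 counts. All 3 Gata2+/f libraries were thus far above all 3 Gata2+/+ libraries, and the Gata2+/f libraries differed among themselves by 1.8-fold. The fitted log2 fold change was 6.25 (SE 0.61, 76.2-fold), and it ranged from 5.90 to 6.53 when each library was left out in turn. The sequence before the RefSeq start of Add2 (GRCm38.p6, plus strand, chr6:86028431-86028680) is shown because Add2 has the largest difference of the 9 genes, with the single GATA-type match in capitals, read from 5′ to 3′.
Add2: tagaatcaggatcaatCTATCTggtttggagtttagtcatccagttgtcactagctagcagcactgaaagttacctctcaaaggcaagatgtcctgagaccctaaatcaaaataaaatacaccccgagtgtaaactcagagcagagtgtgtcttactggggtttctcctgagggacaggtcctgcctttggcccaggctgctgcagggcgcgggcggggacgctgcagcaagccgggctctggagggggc
The capitals are CTATCT, the reverse complement of AGATAG, 234 to 229 bases before the start. RefSeq and GENCODE place the start of Add2 at the same base.

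**Figure D1:**
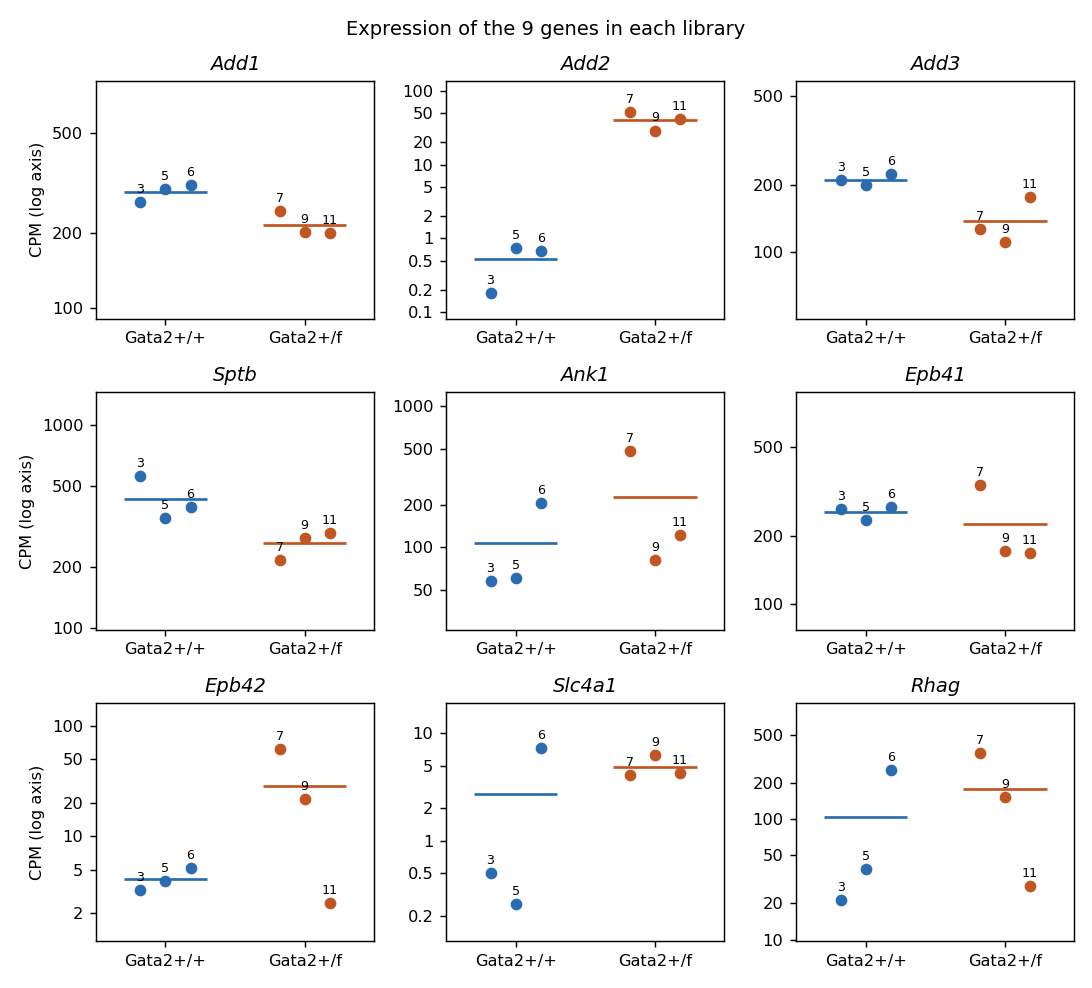
CPM of each of the 9 genes on log axes with a separate range per panel; every point is 1 library, labelled with its replicate number, and the bar is the group mean of 3 libraries. Add2 has all Gata2+/f points between 29.1 and 52.4 CPM and all Gata2+/+ points under 1 CPM, Add1, Add3 and Sptb have all Gata2+/f points below all Gata2+/+ points, and the other 5 genes overlap between groups.

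The other adducins were abundant in both genotypes and lay lower, not higher, in Gata2+/f. Alpha-adducin, Add1 (chr5:34573664-34632308, plus strand), was at 265.7, 298 and 309.6 CPM in Gata2+/+ and at 244.1, 201.2 and 200.5 CPM in Gata2+/f. The groups did not overlap, but the difference did not pass the test (log2 fold change -0.44, SE 0.21, edgeR adjusted p = 0.257). Gamma-adducin, Add3 (chr19:53140443-53247399, plus strand), was at 209, 198.9 and 224 CPM in Gata2+/+ and at 126.5, 110.3 and 176.1 CPM in Gata2+/f, again without overlap and without passing the test (log2 fold change -0.61, SE 0.24, edgeR adjusted p = 0.194).

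To set the adducins against each other, CPM was divided by the kilobases of each gene's merged exons. On this scale the 3 adducins summed to 63.8, 66.0 and 71.4 CPM per kb in Gata2+/+ and to 53.5, 43.7 and 55.1 CPM per kb in Gata2+/f, so the sum was lower in every Gata2+/f library although Add2 was higher. Add2 made up 0.0278%, 0.109% and 0.0947% of that sum in Gata2+/+ and 9.66%, 6.57% and 7.42% in Gata2+/f. The mean share was 0.0773% ± 0.0435 (SD, n = 3) against 7.88% ± 1.59 (SD, n = 3), and with the length of the longest transcript in place of merged exons the Gata2+/f share was 5.94% ± 1.19. Add2 therefore stayed the least abundant adducin per length, at 0.148 to 0.261 of the Add3 level and 0.122 to 0.181 of the Add1 level in Gata2+/f. Add1 held 48.6% to 52.7% of the sum in Gata2+/+ and 42.5% to 53.8% in Gata2+/f, ranges that overlap. Add3 held 47.2% to 51.3% and 37.1% to 50.1%, which also overlap, with its lowest shares in Gata2+/f replicates 7 and 9. Counts per gene do not separate isoforms, and no protein was measured.

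**Figure D2:**
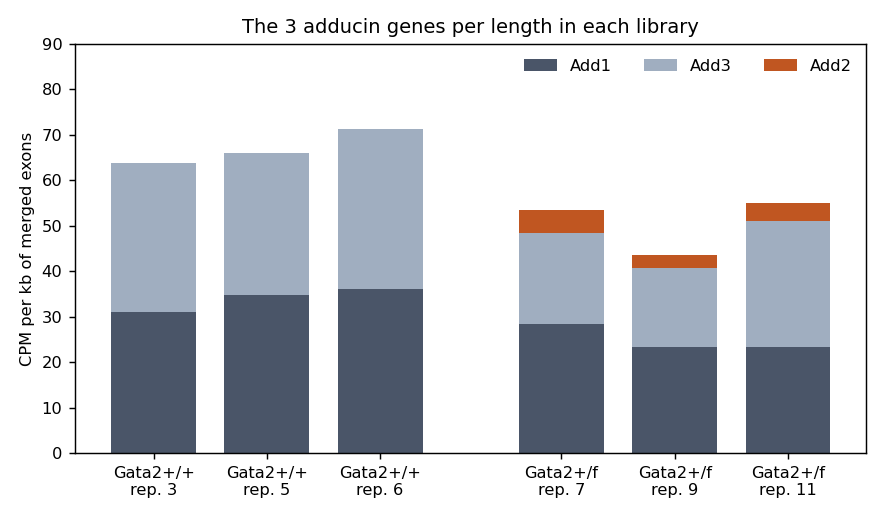
Level of each adducin in CPM per kb of merged exons (vertical axis), stacked in 1 bar for each of the 6 libraries. Add1 and Add3 fill most of every bar, and the Add2 share is 0.0278% to 0.109% in Gata2+/+ and 6.57% to 9.66% in Gata2+/f.

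The genes whose pattern over the 6 libraries lay nearest to Add2 were neutrophil genes. Among 12268 tested genes averaging 0 or more in log2 CPM, the smallest mean absolute differences between centred log2 CPM values were those of S100a9 (0.88), S100a8 (0.90), Camp (0.93), Chil1 (0.98) and Ngp (0.98). None of them was as near as the nearest genes of the other 8, which lay at 0.038 for Add1 to 0.61 for Slc4a1. S100a8 and S100a9 encode the calprotectin subunits, and Camp and Ngp encode granule proteins of maturing neutrophils. The likeness includes the step between genotypes for which Add2 was chosen, and the order within Gata2+/f was not shared: Add2 was highest in Gata2+/f replicate 7 and S100a9 in replicate 11. The levels of S100a9 were 38.4, 114 and 58.7 CPM in Gata2+/+ and 1158, 1197 and 2594 CPM in Gata2+/f replicates 7, 9 and 11.

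Erythroid spectrin beta, Sptb (chr12:76580488-76710547, minus strand), the chain that carries the ankyrin-binding site, had the most negative log2 fold change of the 9 genes. It was at 561.4, 349.7 and 396.3 CPM in Gata2+/+ and at 215.7, 276.7 and 293.6 CPM in Gata2+/f. The groups did not overlap, yet the difference did not pass the test (log2 fold change -0.73, SE 0.27, edgeR adjusted p = 0.179; -0.88 to -0.46 with 1 library left out). Sptb overlaps Plekhg3 on the opposite strand, which reached at most 93.3 CPM, and whether the counting used strand is not given in the sources used here.

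Sptan1, the alpha spectrin of cells other than red cells, lay at 17.9 ± 2.98 CPM per kb in Gata2+/+ and 9.26 ± 5.75 in Gata2+/f (SD, n = 3), with Sptb at 35.9 ± 9.16 and 21.6 ± 3.37 CPM per kb. Sptb exceeded Sptbn1, the beta spectrin of other tissues, by 2.74- to 4.88-fold per kb of merged exons in Gata2+/+ and by 2.55- to 4.46-fold in Gata2+/f, ranges that overlap. The size of this excess depends on the length used. Merged exons and the longest transcript are 17.492 and 9.107 kb for Sptbn1, but 12.147 and 10.394 kb for Sptb. With transcript lengths the ratio would be smaller, and it was not computed.

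Ank1 (chr8:22974844-23150497, plus strand), the ankyrin that joins spectrin to band 3, differed more between libraries of a genotype than between genotypes. It was at 57.5, 61.0 and 205 CPM in Gata2+/+ and at 483, 82.1 and 122 CPM in Gata2+/f. Gata2+/f replicate 7 and Gata2+/+ replicate 6 were the high libraries and the groups overlapped. The log2 fold change was 1.09 (SE 0.76, edgeR adjusted p = 0.416), and it was -0.03 without Gata2+/f replicate 7 and 1.99 without Gata2+/+ replicate 6.

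Epb41 (chr4:131923413-132075321, minus strand), which binds spectrin to actin, was similar in the 3 Gata2+/+ libraries and split in Gata2+/f. It lay at 264, 235 and 269.6 CPM in Gata2+/+ and at 336.6, 172.3 and 168.2 CPM in Gata2+/f, so that replicate 7 was the highest of all libraries and replicates 9 and 11 the lowest. The log2 fold change was -0.18 (SE 0.31, edgeR adjusted p = 0.754) and 0.03 without Gata2+/f replicate 9.

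Epb42 (chr2:121017891-121037072, minus strand), the band 3-binding protein 4.2, was at 3.26, 3.92 and 5.12 CPM in Gata2+/+ and at 61.7, 21.7 and 2.48 CPM in Gata2+/f. Replicates 7 and 9 were above every Gata2+/+ library and replicate 11 below every one. Its log2 fold change was 2.80 (SE 0.96, with a 95% confidence interval from 0.58 to 5.03), with an adjusted p of 0.164 by edgeR and 0.0164 by DESeq2. It ranged from 1.59 without Gata2+/f replicate 7 to 3.39 without replicate 11. Of the 8 genes other than Add2, Epb42 was the only one called by DESeq2, which called 10.5% of all the genes it tested, 5.55% higher and 4.94% lower in Gata2+/f.

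Slc4a1 (chr11:102348824-102366203, minus strand), the bicarbonate and chloride exchanger that anchors the skeleton, was at 0.50, 0.255 and 7.35 CPM in Gata2+/+ (25, 15 and 472 counts). In Gata2+/f it was at 4.07, 6.23 and 4.27 CPM (288, 373 and 286 counts). Gata2+/+ replicate 6 held the highest level of all libraries, and the other Gata2+/+ libraries lay below every Gata2+/f library. The log2 fold change was 0.84 (SE 1.12, edgeR adjusted p = 0.679), and 3.72 without Gata2+/+ replicate 6. DESeq2 gave no adjusted p for this gene.

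Rhag (chr17:40811126-40840754, plus strand), needed for the Rh proteins to reach the cell surface, was at 21.5, 38.8 and 254 CPM in Gata2+/+ and at 353, 152 and 28.0 CPM in Gata2+/f. Gata2+/+ replicate 6 ranked second of the 6 libraries and Gata2+/f replicate 11 second from last, so the groups overlapped widely. The log2 fold change was 0.76 (SE 1.07, edgeR adjusted p = 0.699), -0.18 without Gata2+/f replicate 7 and 2.59 without Gata2+/+ replicate 6. The 5 genes nearest to Slc4a1 in pattern over the 6 libraries were Popdc2 (mean absolute difference 0.61 on the log2 scale), a gene ID without a symbol (ENSMUSG00000090407, 0.63), Gm27177 (0.80), Extl1 (0.84) and Lhfpl2 (0.85). Rhag was not among them.

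Ank1, Epb42, Slc4a1 and Rhag varied widely over the 6 libraries, Epb42 mainly within Gata2+/f and Slc4a1 mainly within Gata2+/+. The highest library exceeded the lowest by 8.41-fold for Ank1, 16.4-fold for Rhag, 24.9-fold for Epb42 and 28.8-fold for Slc4a1, against a median of 2.16-fold and a 90th percentile of 6.49-fold over 9165 genes averaging at least 3 in log2 CPM. Epb42 and Slc4a1 averaged below that limit and were not among the 9165. The spread of other genes at their level was not computed. Within Gata2+/+ the ratio was 3.57 for Ank1, 11.9 for Rhag, 1.57 for Epb42 and 28.8 for Slc4a1, and within Gata2+/f it was 5.89, 12.6, 24.9 and 1.53. Measured from each gene's mean log2 CPM, Gata2+/f replicate 7 stood 1.97 higher for Ank1, 2.98 higher for Epb42, 2.09 higher for Rhag and 0.88 higher for Slc4a1. Gata2+/+ replicate 6 stood 0.74, 1.62 and 1.72 higher for Ank1, Rhag and Slc4a1 but at -0.60 for Epb42. Gata2+/f replicate 11 stood at -1.63 for Epb42, -1.56 for Rhag and -0.012 for Ank1 but at 0.95 for Slc4a1.

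**Figure D3:**
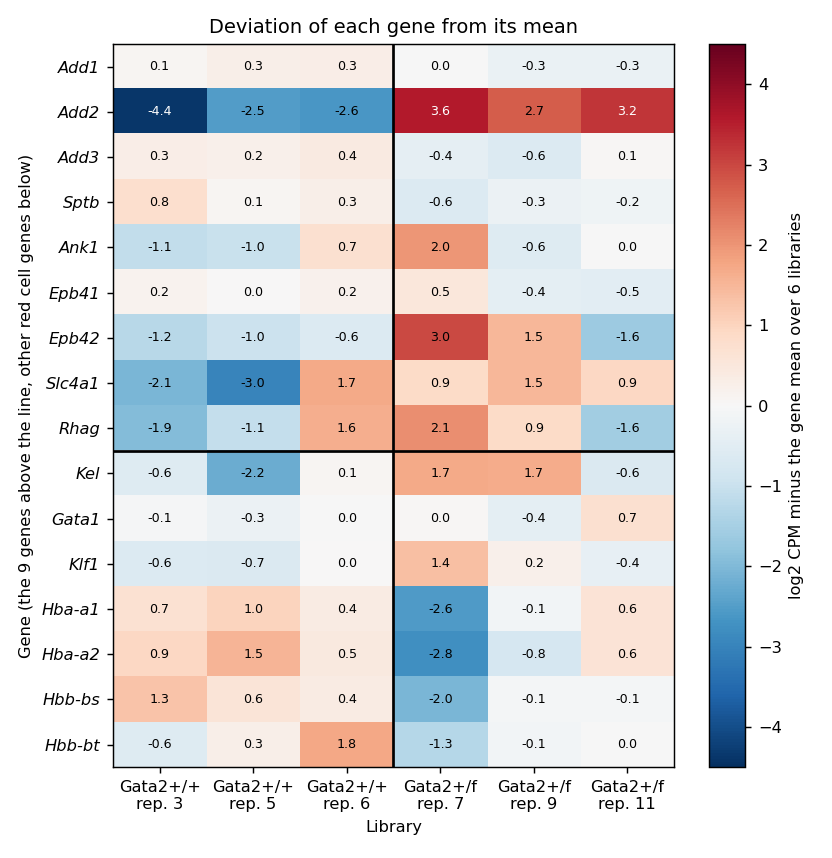
Log2 CPM of each gene minus its mean over the 6 libraries, for the 9 genes and reference erythroid genes (rows) in each library (columns); red is above and blue below the gene's mean, and numbers give the value. Add2 separates the genotypes, whereas Ank1, Epb42, Slc4a1 and Rhag do not; Add2, Ank1, Epb41, Epb42 and Rhag are all highest in Gata2+/f replicate 7.

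Erythroid markers lay on both sides of 0. Of 22 erythroid genes in the table, 13 had a log2 fold change above 0 and 9 below, with a median of 0.18 against 0.019 over all tested genes. By edgeR none of the 22 was called, against 0% of all tested genes. DESeq2 called 1, Trim58, lower (DESeq2 adjusted p = 0.0356), against 10.5% of all the genes it tested, 4.94% lower. The list summed to 9718 to 12187 CPM in Gata2+/+ and 6018 to 9261 CPM in Gata2+/f, and the 4 adult globin genes within it to 7529, 10074 and 5985 CPM and to 734, 3079 and 6008 CPM. Gata2+/f replicate 7, the library with the most Ank1, Epb42 and Rhag, thus had the least globin RNA. Gata1 was at 160 ± 14.9 CPM in Gata2+/+ against 198 ± 80.2 CPM in Gata2+/f (SD, n = 3), and Klf1 was at 49.2, 48.0 and 77.1 CPM and at 194, 89.2 and 58.7 CPM, highest in replicate 7 (both chosen after their values were seen). The 5 erythroid genes with the smallest p-values were Tfrc, the transferrin receptor (log2 fold change 1.26, edgeR adjusted p = 0.145), Trim58, a ubiquitin ligase of late erythroblasts (-2.43, 0.189), the haem pathway gene Uros (0.82, 0.192), the erythropoietin receptor gene Epor (0.88, 0.198) and the globin gene Hbb-bs (-1.29, 0.206).

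Read together, 0 of the 8 genes other than Add2 passed an adjusted p of 0.05 with edgeR, where 0% of all tested genes did. Neither edgeR's bias-adjusted fit, which called 0.207% of all tested genes, nor limma's voom fit, which called 0.0583%, called any of the 8. At an unadjusted p under 0.05, 3 of the 8 were found (Epb42 higher, Add3 and Sptb lower), against 22.6% of all tested genes. For 3 of the 8 the libraries separated by genotype without overlap, all lower in Gata2+/f (Add1, Add3 and Sptb), against 29.7% of all tested genes in either direction and 16.6% on the lower side. Of the 8, 4 had a log2 fold change above 0 and 4 below, with a median of 0.29.

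Per kb of merged exons, the order of levels in Gata2+/+ was Rhag (44.8 ± 55.5 CPM per kb, SD, n = 3), Sptb (35.9 ± 9.16), Add1 (34.0 ± 2.66), Add3 (33.0 ± 1.98), Epb41 (16.1 ± 1.16), Ank1 (7.98 ± 6.23), Epb42 (0.757 ± 0.175), Slc4a1 (0.552 ± 0.823) and Add2 (0.0525 ± 0.0302). Rhag, Sptb, Add1 and Add3 overlapped in their library values, as did Epb41 with Ank1, Epb42 with Slc4a1, and Slc4a1 with Add2. Add3 stood clear of Epb41, and Ank1 of Epb42. In Gata2+/f the order was Rhag (75.9 ± 70.1 CPM per kb), Add1 (25.1 ± 2.92), Add3 (21.6 ± 5.37), Sptb (21.6 ± 3.37), Ank1 (16.9 ± 16.3), Epb41 (14.2 ± 6.03), Epb42 (5.29 ± 5.58), Add2 (4.04 ± 1.15) and Slc4a1 (0.994 ± 0.244). There each neighbour in the order overlapped the next, except that Add2 lay above Slc4a1 in every Gata2+/f library. The first place of Rhag in Gata2+/+ rests on replicate 6 (9.17, 16.6 and 109 CPM per kb in replicates 3, 5 and 6). Both orders depend on the length used. Merged exons and the longest transcript are 8.561 and 4.547 kb for Add1, but both are 2.339 kb for Rhag. The order by transcript length was not computed.

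Other red cell skeleton and membrane genes were a list of 18, all tested. Of these, 11 had a log2 fold change above 0 and 7 below (median 0.24), 0 were called by edgeR or by DESeq2, and 3 did not overlap between groups: Bsg higher, Icam4 and Cd47 lower. Over all genes, edgeR called 0%, DESeq2 called 10.5%, and 29.7% did not overlap. Cd47, the surface signal against engulfment that sits in the Rh complex, was at 427 ± 64.6 CPM in Gata2+/+ against 270 ± 20.6 CPM in Gata2+/f (SD, n = 3; log2 fold change -0.66, edgeR adjusted p = 0.160). Kel, a blood group endopeptidase, was at 31.8, 10.2 and 51.1 CPM and at 157, 151 and 30.7 CPM (log2 fold change 1.86, edgeR adjusted p = 0.196). Aqp1, the water channel of the red cell membrane, was at 3.24, 4.15 and 29.6 CPM and at 60.2, 189 and 5.35 CPM (2.78, edgeR adjusted p = 0.246). Ermap and the basigin gene Bsg had log2 fold changes of 1.01 and 0.51 (edgeR adjusted p = 0.223 and 0.235). Like Ank1, Epb42 and Rhag, Kel, Aqp1 and Ermap overlapped between groups, and the highest level of Kel and Ermap was in Gata2+/f replicate 7.

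Among 20 widely expressed paralogs of the 9 genes, 16 were tested, 8 above and 8 below 0 (median 0.14). EdgeR called 0, against 0% of all tested genes. DESeq2 called Epb41l5 and Slc4a8 higher and Slc4a4 lower, against 5.55% of all genes it tested higher and 4.94% lower. Epb41l5, a protein 4.1 relative, was at 0.4, 0.221 and 0.498 CPM in Gata2+/+ and at 13.9, 1.99 and 0.523 CPM in Gata2+/f (adjusted p = 0.143 by edgeR and 0.00255 by DESeq2). Slc4a8, a sodium-driven relative of band 3, was at 2.22 ± 0.723 CPM and 8.49 ± 1.99 CPM (SD, n = 3; log2 fold change 1.94, adjusted p = 0.0990 by edgeR and 0.000149 by DESeq2). Slc4a4, a sodium bicarbonate cotransporter, had 25, 73 and 43 counts in Gata2+/+ and 1, 0 and 4 in Gata2+/f (edgeR adjusted p = 0.0966). Epb41l2 had a log2 fold change of 1.47 (edgeR adjusted p = 0.190) and Sptan1 one of -0.95 (edgeR adjusted p = 0.238). Sptbn1 was at 180 ± 13.3 CPM and 119 ± 40.7 CPM (SD, n = 3; -0.59, edgeR adjusted p = 0.243; chosen after its values were seen), on the same side as Sptb and likewise without overlap.

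Actin capping and tropomodulin partners, which act at the same actin junctions as the adducins, were a list of 10. Of 9 tested, 2 lay above 0 and 7 below (median -0.30), and edgeR called 0, against 0% of all tested genes. Tropomyosin 4, Tpm4, had a log2 fold change of 1.94 (adjusted p = 0.136 by edgeR and 0.0171 by DESeq2). Tmod3, the tropomodulin of nucleated cells, was at 179 ± 19.3 CPM in Gata2+/+ against 99.0 ± 20.1 CPM in Gata2+/f (SD, n = 3; -0.85, edgeR adjusted p = 0.123). Capzb, Capg and Tpm1 had log2 fold changes of -0.24, -0.30 and -0.41. In every Gata2+/f library Tmod3 and Capzb were lower and Tpm4 was higher, 3 of the 9 tested, against 29.7% of all tested genes without overlap.

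Add2 and Gata2 lie on chromosome 6, 2.069 Mb apart, and the genes near Add2 were examined because the choice of the 9 genes did not use position. Within 250 kb of Add2, 9 genes were tested, 5 above and 4 below 0, with a median log2 fold change of 0.15. None was called by edgeR, which called 0% of all tested genes. The 7 protein-coding ones were Fam136a (0.89, edgeR adjusted p = 0.148), Snrpg (0.58), Tprkb (0.17), Nat8f4 (-0.10), Nat8f1 (-0.13), Dusp11 (-0.59) and Tgfa (-1.53). Fam136a was higher and Dusp11 and Tgfa lower in every Gata2+/f library, 3 of the 9, against 29.7% of all tested genes. DESeq2 called Fam136a (adjusted p = 0.0446), where it called 10.5% of all the genes it tested. Tgfa, which encodes a ligand of the EGF receptor, was at 27.0, 26.0 and 23.8 CPM in Gata2+/+ and at 9.28, 0.217 and 17.0 CPM in Gata2+/f. Between Add2 and Gata2, 36 genes were tested, 22 above and 14 below 0 (median 0.18, from -2.57 for Prokr1 to 2.87 for Asprv1), and 10 of them did not overlap between groups, against the 29.7% of all tested genes given above. The largest of the 36, 2.87 for Asprv1 (SE 1.03, groups overlapping), compares with 6.25 for Add2, which was chosen for its rise. Around the other 8 genes, 4 to 19 genes were tested within 250 kb, and edgeR called none of them, against the same 0% of all tested genes. Their medians ran from -0.70 around Rhag to 0.43 around Slc4a1, whose neighbour Itga2b, a platelet integrin gene, stood at -2.98. Around Epb42, 10 of 11 tested neighbours lay below 0 (median -0.29), whereas Epb42 itself was at 2.80. Around Sptb, 8 of 10 lay below 0 (median -0.48), the side on which Sptb itself lay. Within 500 kb, 8 of 13 lay below 0 around Sptb (median -0.17) and 21 of 28 around Epb42 (median -0.28). Of all tested genes, 51.1% lay above 0.

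**Figure D4:**
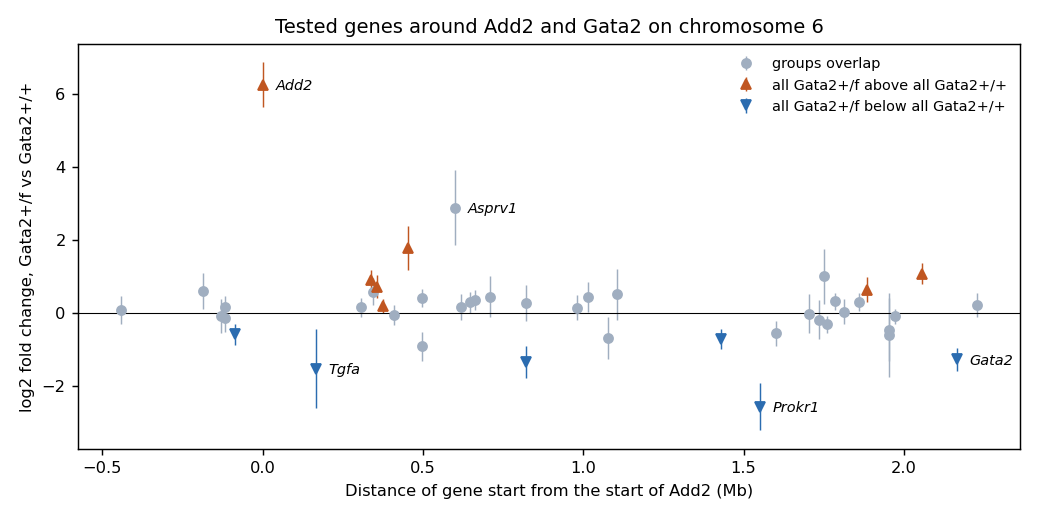
Log2 fold change (Gata2+/f against Gata2+/+, vertical axis) of tested genes by the distance of their start from that of Add2 in Mb, with bars of 1 SE; triangles are genes whose groups do not overlap, pointing up where Gata2+/f is higher, and grey circles are genes whose groups overlap. Add2 stands at 6.25, and the genes between it and Gata2 lie between -2.57 and 2.87.

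Promoter windows (the 250 bases before each RefSeq start, build GRCm38.p6) were found for 7 of the 9 genes; Ank1 and Slc4a1 were not examined in this way. Windows were searched on both strands for GATA letters (AGATAA or its variant AGATAG, and TGATAA or its variant TGATAG) and for the KLF-type letters CCACACCC. They were also searched for a spaced pair in which CTG, a part of an E-box, is followed after any 9 bases by GATA. A full E-box was not required. Of 32851 windows in the whole table, 26.5% held the GATA letters, 3.20% the KLF letters and 2.16% the spaced pair. The GATA letters were in the windows of Add2, Epb42 and Rhag, in 1 of 3 windows of Add3 and in 1 of 3 of Epb41, and in none of Add1 and Sptb. The KLF letters were in none. Epb42 and Rhag were the 2 genes with the spaced pair, whose GATA part overlaps their GATA match. Both sites are shown as 30 bases with the 16 letters of the spaced pair in capitals, 5′ to 3′ on the gene's strand (Epb42 at chr2:121037080-121037109, minus strand, and Rhag at chr17:40811112-40811141, plus strand).
Epb42: atttcctTATCTCGTTCAAACAGatggttt
Rhag: ctgctctTATCAACACTATACAGcctgtgg
In both, the capitals hold the searched letters on the opposite strand. They lie 225 to 210 bases before the RefSeq start of Epb42 and 30 to 15 bases before that of Rhag. GENCODE starts Epb42 195 bases and Rhag 23 bases farther upstream, so the Rhag site spans its GENCODE start. The window of Add2, with 53.2% G and C against a median of 52.4%, held the GATA letters alone. A match gives the letters only, and binding was not measured.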

How the data were processed

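Per the labels' protocols, poly-A selected, stranded RNA libraries were made from sorted c-kit+ marrow of 6 samples. Per the submitters' processing notes, CASAVA 1.8.2, STAR 2.5.4a and RSEM 1.3.0 were used with the GRCm38 genome; the annotation release and the strand setting are not given in the sources used here. The deposited table holds expected counts per gene made by the authors, of which 11.2% to 12.1% per library were not whole; they were rounded to whole numbers here. Names and coordinates came from GENCODE M21 (42462 of 43629 IDs matched).

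In R 4.3.3, genes with low counts were removed (edgeR 4.0.16, filterByExpr, minimum count 10), leaving 15432, and TMM scaling and the quasi-likelihood test (two-sided, no covariates, all 6 libraries) were applied. Values of p were adjusted by Benjamini-Hochberg across the tested genes, and 0.05 was the threshold. Fold changes are Gata2+/f minus Gata2+/+. The fit was also run on simulated counts with known changes, and the outcome is not given here. Libraries differed from each other well beyond counting noise (chi-square per gene of at least 240), which cannot show that they came from separate mice. Each was counted as its own sample. CPM per kb used merged exon lengths. DESeq2 1.42.0, edgeR's bias-adjusted fit, limma 3.58.1 (voom), other scalings, no filter, a threshold of 0.1 and leaving out each library were alternatives.

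Named were the 9 genes, Gata2, Kit, the 5 genes with the smallest p in each related list and in the erythroid list, coding genes within 250 kb of Add2, and the 5 genes nearest in pattern to Add2 and to Slc4a1; other names were chosen after their values were seen. The 9 genes, the lists and the tests were chosen with earlier results of these data known. Some genes of the related lists are not reported here. No protein sequences were used here.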

Additional observations from a re-analysis of the deposited data

How the results depend on the processing

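The number of genes called depended on the tool: 0 with edgeR's quasi-likelihood test, 1724 with DESeq2, 32 with edgeR's bias-adjusted fit, 9 with limma voom, 19 without the count filter and 444 at an adjusted p under 0.1; the cause was not tested. Of the 9 genes, 0 were called at first, 2 by DESeq2 (Add2 and Epb42), and 1 (Add2, chosen for this difference) by the bias-adjusted fit, by voom, without the filter and at 0.1. With 1 library left out, 0 to 66 genes were called, 66 without Gata2+/f replicate 11 and 1 without Gata2+/+ replicate 6. None of the 8 was among them. The number of the 9 whose groups did not overlap, 4, became 6 without Gata2+/+ replicate 6 (Ank1 and Slc4a1 added), 5 without Gata2+/f replicate 7 (Epb41 added) and 5 without Gata2+/f replicate 11 (Epb42 added). Leaving out a library cannot make separated groups overlap, so this number could only stay or rise. The share of all tested genes without overlap was not computed for these smaller sets. The Add2 share of the adducins was 5.94% with transcript lengths. Log2 fold changes that turned sign with 1 library left out ranged over -0.0278 to 1.99 for Ank1, -0.55 to 0.035 for Epb41, -0.18 to 2.59 for Rhag, -0.27 to 0.16 for Nat8f4, -0.29 to 0.0257 for Nat8f1, -0.0309 to 0.42 for Tprkb, -0.15 to 1.93 for Extl1, -0.21 to 1.70 for Lhfpl2 and -0.015 to 0.59 for Gata1. Of 117 alternatives for the 9 genes, Add2 included, 107 kept direction and side of the threshold. No paired analysis was possible because the groups share no replicate number. With 3 libraries a group, small differences may go undetected, and Add2 in Gata2+/+ rests on 9 to 44 counts per library.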

Other observations

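Nearest patterns over the 6 libraries were also listed for Ank1, Epb42 and Rhag, chosen after their values were seen. For Ank1 they were Hdac7, a class IIa histone deacetylase (mean absolute difference 0.23 between centred log2 CPM values), the Wnt receptor Fzd7 (0.28), Rcbtb1 (0.29) and Car1, a carbonic anhydrase abundant in red cells (0.30). For Epb42 they were C1qtnf12 (0.45), Prelid2 (0.47) and the fatty acid desaturase Fads2 (0.48). For Rhag they were Scd1, another fatty acid desaturase (0.37), and Atp4a, a proton pump subunit (0.40), followed farther down by Fads2 (0.53). Extl1 was on the lists of both Slc4a1 (0.84) and Rhag (0.50). Over 6 libraries and 12268 candidate genes, such likeness is a description and has no p-value.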
